A study of Mus musculus with 8 samples.

Results

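The genes described here encode receptors of platelets and leukocytes that carry an immunoreceptor tyrosine-based inhibitory motif (ITIM), close relatives of these receptors, and the phosphatases with SH2 domains that such receptors recruit. They were chosen by symbol, as Pecam1, Ceacam1, Ceacam10, Treml1, Mpig6b and Lair1 for the receptors and Ptpn6, Ptpn11 and Inpp5d for the phosphatases. All 9 were found among the 13387 genes of the deposited count table, and all 9 passed the filter on low counts.

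Bulk RNA-Seq was performed on wild-type C57BL/6 bone marrow megakaryocytes (MKs, the precursors of platelets) kept in culture for 18 hours, either with no other treatment (4 libraries) or cocultured with bone marrow mesenchymal stem cells (MSCs, 4 libraries). Per the methods, all cultures received thrombopoietin, and the MKs were enriched from flushed marrow with beads against CD41, so the starting cells were MK enriched rather than pure. The MSCs were sorted as CD45-Ter119-CD31-CD51+CD140a+ cells of the same strain, and since CD31 is the protein of Pecam1, the added MSCs were gated as negative for the product of a gene described here. The labels give the sequenced cells as MKs taken off the cultures and parted from their platelets, whereas the methods describe pooled platelets, and the values below are called MK libraries after the labels. The study followed LYN kinase activation in platelets after coculture. The comparison below asks how the transcripts of the receptors and phosphatases that act next to LYN differed between the culture conditions.

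An ITIM is a short stretch around a tyrosine in the cytoplasmic tail of a receptor. Src family kinases such as LYN phosphorylate this tyrosine, which then binds the SH2 domains of the protein tyrosine phosphatases SHP-1 (Ptpn6) and SHP-2 (Ptpn11) or of the lipid phosphatase SHIP1 (Inpp5d). In MKs and platelets, PECAM-1, CEACAM1 and G6b-B are known for opposing signals of the ITAM receptors GPVI and CLEC-2, while on leukocytes the same phosphatases restrain Fc, antigen and cytokine receptors.

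The motifs that define the group were read from the annotated reading frames (GENCODE vM21, GRCm38 assembly, which is mm10). They are shown because their place in a receptor tail separates the members that carry an ITIM from those that do not. The search took isoleucine, leucine, valine or serine, any residue, tyrosine, any 2 residues, and isoleucine, leucine or valine. The related ITSM takes threonine in the leading position and ends in valine or isoleucine. A tail motif was counted where it followed a stretch of 19 residues with a mean Kyte-Doolittle hydropathy of at least 1.6. Each sequence below runs 5′ to 3′ on the coding strand, with the codon of the tyrosine in capitals.
Pecam1 ITIM, minus strand of chr11:106679577-106679594, exon 14 of 16: gtagaaTACacagaagtg
Pecam1 ITSM, minus strand of chr11:106671758-106671775, exon 15 of 16: acggtgTACagtgagatc
Ceacam1 ITIM, minus strand of chr7:25463874-25463891, exon 9 of 9: gtcgcaTACactgtcctg
Ceacam1 ITSM, minus strand of chr7:25463793-25463810, exon 9 of 9: acagttTATtcagaagta
Treml1 ITIM, plus strand of chr17:48366812-48366829, exon 6 of 6: gtgacaTATgccacagtt
Mpig6b ITIM, minus strand of chr17:35064416-35064433, exon 6 of 6: ctgcacTACgctgatctg
Mpig6b ITSM, minus strand of chr17:35064338-35064355, exon 6 of 6: actgtcTATgcggttgta
Lair1 ITIM, minus strand of chr7:4009790-4009807, exon 8 of 8: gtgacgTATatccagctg
Lair1 further ITIM, minus strand of chr7:4009703-4009720, exon 8 of 8: agcacaTATgcagccatc

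Tail ITIMs were found in 5 of 5 complete reading frames of Pecam1, 2 of 7 of Ceacam1, 2 of 3 of Treml1, 1 of 2 of Mpig6b and 2 of 5 of Lair1. Ceacam10, a small member of the carcinoembryonic antigen family, had neither a membrane stretch nor an ITIM in its 2 reading frames, so the name ITIM receptor is not borne out by its sequence and it is treated as a relative of Ceacam1. The ITIM letters alone are common, as 49.7% of 21479 protein-coding genes had a match somewhere and 13.8% had a match after a membrane stretch. A match without a membrane stretch was also found in 4 of 4 reading frames of Ptpn6 and 2 of 2 of Ptpn11. Counts per gene do not tell the reading frames apart, so for Ceacam1 in particular the share of transcripts with an ITIM is not known from these values.

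SHP-1 and SHP-2 share the signature of protein tyrosine phosphatases (histidine, cysteine, any 2 residues, glycine, any 2 residues, arginine), which SHIP1, a phosphatase of inositol lipids, lacked in all 5 of its reading frames. Their signatures are set side by side, with the codon of the catalytic cysteine in capitals, since their transcripts are compared as a ratio below.
Ptpn6, minus strand of chr6:124722063-124724964, joined from exons 11 and 12: catTGCagcgctggcatcggccgc
Ptpn11, minus strand of chr5:121143614-121144537, joined from exons 11 and 12: cacTGCagcgctgggattggccgg

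Library totals ran from 4939874 to 12523616 counts, and 3 counts, taken as the floor, corresponded to 0.284 to 0.662 CPM (counts in a library scaled by its total and TMM factor). Replicate 3 of the cocultures stood apart from the other cocultures, with counts on 10735 genes against 13104 to 13193, so each member and each list is given with and without it. The MK and platelet markers were present in all libraries, with all 15 listed genes in the table and a summed level of 2392 to 2653 CPM in MKs cultured alone and 1836 to 2429 CPM in the cocultures, and Pf4 (platelet factor 4) at 622.5 to 1116 CPM and 795.5 to 1601 CPM. Markers of other marrow cells were also present and are given beside the results they moved with. The paper describes each group of pooled platelets by its number of mice, but the labels tie no library to an animal or culture. The p-values measure the spread between these samples, which may in part be technical.

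Transcripts of CEACAM1, CEACAM10, SHP-1 and SHIP1 were lower in libraries of MKs cocultured with MSCs than in libraries of MKs cultured alone. The falls ran from 2.57-fold for Ptpn6 to 14.8-fold for Ceacam10. These libraries also held markers of other marrow cells, given below, and the part of those cells was not tested. None of the 9 genes was called higher by edgeR or by DESeq2, although DESeq2 gave no adjusted p for Pecam1, which was counted as not called. A gene was called when it changed 2-fold or more with a p of 0.05 or less in edgeR's quasi-likelihood test, adjusted by Benjamini-Hochberg over 11722 genes, and when 1 group or both averaged 1 CPM or more. At an unadjusted p under 0.05, 1 gene, Ptpn11, was higher in edgeR. The 4 calls among 9 genes stand against 7.31% of all tested genes called lower and 13.2% called higher. The median log2 fold change of the 9 genes was -0.45, against 0.03 for all tested genes. The groups did not overlap for 5 of the 9 genes, a pattern seen in 40.3% of all tested genes. Without replicate 3 of the cocultures, 5 of the 9 genes were called lower and none higher, and the median was -1.66. In that setting 15.4% of the 12267 genes tested were called lower and 20.6% higher.

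**Figure D1:**
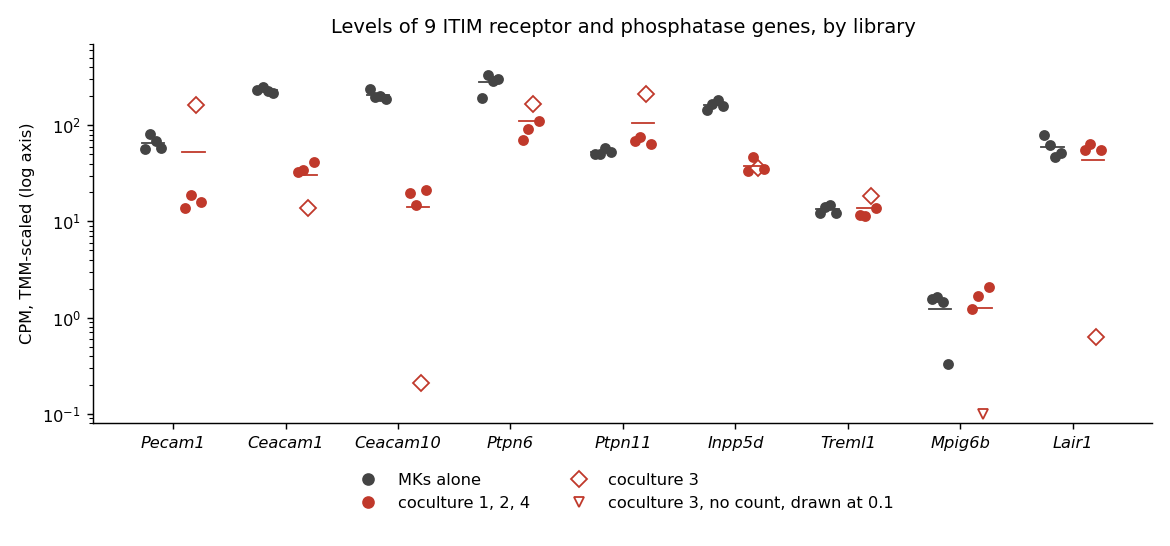
Levels of the 9 genes in each library, in TMM-scaled CPM on a log axis, with 4 libraries of MKs cultured alone (grey), cocultures 1, 2 and 4 (red circles) and coculture 3 (open diamonds, or an open triangle at 0.1 where it had no count). Horizontal bars are group means over 4 libraries. Ceacam1, Ceacam10, Ptpn6 and Inpp5d lie below the controls in all cocultures, and for Pecam1 and Ptpn11 coculture 3 lies above all other libraries.

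Pecam1 (ENSMUSG00000020717.19, chr11:106654217-106750628, minus strand) encodes PECAM-1 or CD31, an adhesion receptor of platelets, leukocytes and endothelium whose tail motifs bind SHP-2 and SHP-1. Its levels were 56.5, 80.6, 68.4 and 58.2 CPM in MKs cultured alone and 13.8, 18.8, 160.5 and 15.96 CPM in cocultures 1 to 4. Cocultures 1, 2 and 4 thus lay below all libraries of MKs cultured alone and coculture 3 lay above all of them, so the groups overlapped. The log2 fold change was -0.33 (SE 0.78, 95% interval -2.10 to 1.44, adjusted p = 0.798 by edgeR) and was not called. Without coculture 3 it was -2.05 (SE 0.21, adjusted p = 4.82e-07 by edgeR), a 4.15-fold lower level that was called. Whether Pecam1 was called lower after coculture was therefore decided by a single library, and a correction for gene length turned the value over all 8 libraries positive, to 1.12.

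Vessel cells also make PECAM-1, so endothelial markers are given beside it. Of the 10 listed, 6 were in the table and 3 were tested, with a summed level of 52.9 to 64.1 CPM in MKs cultured alone, 22.1 to 27.7 CPM in cocultures 1, 2 and 4 and 13.3 CPM in coculture 3. In coculture 3, 4 of the 6 were at 0. Cdh5, which encodes VE-cadherin, was highest in coculture 3 as Pecam1 was, at 2.62 CPM against at most 0.694 CPM in the other cocultures and 0.887 CPM in MKs cultured alone, and it did not pass the filter on low counts. Tek, the angiopoietin receptor and the highest of the list, was at 24.0 to 34.8 CPM in MKs cultured alone, 4.34 to 11.8 CPM in cocultures 1, 2 and 4 and 10.7 CPM in coculture 3. Of the 3 tested, 1 was called lower, and 2 of the 4 tested without coculture 3 were called lower and 1 higher. Cdh5 was named after its values were seen, and the part of endothelial cells in the level of Pecam1 was not tested.

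Ceacam1 (ENSMUSG00000074272.10, chr7:25461707-25477603, minus strand) encodes CEACAM1, an adhesion receptor of platelets, neutrophils and other leukocytes that recruits SHP-1 and SHP-2. Its levels were 231.5, 247.4, 229.8 and 216.5 CPM in MKs cultured alone and 32.8, 34.5, 13.8 and 41.6 CPM in the cocultures. Every coculture lay far below all the controls. Ceacam1 had a log2 fold change of -2.92 (SE 0.33, adjusted p = 0.000359 by edgeR), a 7.54-fold lower level, and it was -2.69 (SE 0.18) without coculture 3. Of the 5932 distinct 31-base stretches of the Ceacam1 transcripts, 36.2% also occur in Ceacam2, so the assignment of reads between these genes is uncertain, although Ceacam2 reached 2.66 CPM in a single library of MKs cultured alone and had no count in the other 7.

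Ceacam10 (ENSMUSG00000054169.7, chr7:24777206-24784657, plus strand) fell by 3.89 on the log2 scale (SE 0.90, adjusted p = 0.0152 by edgeR), a 14.8-fold lower level and the largest fall among the 9 genes. Its levels were 239.0, 197.2, 202.5 and 186.1 CPM in MKs cultured alone, 19.5, 14.98 and 21.2 CPM in cocultures 1, 2 and 4, and 0.209 CPM, from 2 counts, in coculture 3. Coculture 3 was below the floor of 3 counts, and the other cocultures formed a tight group well below the controls. Without coculture 3 the log2 fold change was -3.49 (SE 0.20), 11.3-fold lower. Ceacam10 and Ceacam1 share 71 of the 1513 distinct 31-base stretches of Ceacam10, or 4.69%.

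The balance between these relatives was compared through the ratio of their counts within each library, which does not depend on scaling. Ceacam1 had 0.969, 1.26, 1.14 and 1.16 counts for each count of Ceacam10 in MKs cultured alone, and 1.68, 2.30 and 1.97 in cocultures 1, 2 and 4. In coculture 3 the ratio was 66.0, from 132 and 2 counts, with an exact Clopper-Pearson interval of 17.9 to 551. The groups did not overlap (mean log2 difference of 2.07, two-sided exact permutation test, p = 0.0286, which is the smallest p that 4 against 4 libraries allow, and 0.0572 after Benjamini-Hochberg adjustment over 4 ratios). Without coculture 3 the log2 difference was 0.81. Ceacam10 therefore had the larger relative fall of the pair in each coculture, though the adjusted p misses 0.05.

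Both CEACAM genes moved with markers of granulocytes, cells in which CEACAM1 is well known. All 12 neutrophil markers were called lower, with a median log2 fold change of -3.36 and a summed level of 84650 to 86460 CPM in MKs cultured alone, 9612 to 10230 CPM in cocultures 1, 2 and 4 and 4305 CPM in coculture 3. S100a8, a calcium-binding protein abundant in neutrophils and the highest of that list, was at 44170 to 53730 CPM, 4926 to 5824 CPM and 1506 CPM in the same order, and no neutrophil marker was at 0. Of the 8 eosinophil markers, 7 were called lower, with a summed level of 1084 to 1738 CPM in MKs cultured alone, 40.7 to 66.6 CPM in cocultures 1, 2 and 4 and 12.3 CPM in coculture 3, where 4 of the 8 were at 0. Prg2, the major basic protein of eosinophils, fell from 712.9 to 1331 CPM in MKs cultured alone to 23.6 to 44.1 CPM in cocultures 1, 2 and 4 and 9.94 CPM in coculture 3. Without coculture 3 the same numbers, 12 neutrophil and 7 eosinophil markers, were called lower. The part of these cells in the results was not tested, and in bulk libraries fewer cells of a type and less RNA per cell cannot be told apart.

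The patterns most like those of the CEACAM genes, by Pearson's r of log2(CPM + 1) over the 8 libraries, included genes of these lists. Ceacam1 was nearest to Cxcr2 (r = 0.998), a chemokine receptor in the neutrophil list, Ear2 (r = 0.998), an eosinophil-associated ribonuclease, and Fpr2 (r = 0.997), a formyl peptide receptor. Ceacam10 was nearest to Tmem71 (r = 1.0), Ccpg1 (r = 0.999) and Mtus1 (r = 0.999). These are descriptions without a test, since the libraries share the split into groups and the departure of coculture 3.

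Treml1 (ENSMUSG00000023993.7, chr17:48359916-48367176, plus strand) encodes TLT-1, a receptor stored in the alpha granules of platelets and MKs. Its levels were 12.4, 14.0, 14.9 and 12.4 CPM in MKs cultured alone and 11.6, 11.5, 18.5 and 13.9 CPM in the cocultures. The groups overlapped and no library lay far from the rest. With a log2 fold change of 0.05 (SE 0.38, 95% interval -0.82 to 0.91, adjusted p = 0.943 by edgeR), and -0.15 without coculture 3, Treml1 was not called. Its interval lies inside the 2-fold cutoff on both sides. No 31-base stretch of its transcripts occurs in another gene.

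Mpig6b (ENSMUSG00000073414.8, chr17:35062693-35066184, minus strand) encodes G6b-B, an inhibitory receptor of the MK lineage that is needed for normal platelet production and binds SHP-1 and SHP-2. It was measured from few counts, 7, 16, 13 and 2 in MKs cultured alone and 13, 13, 0 and 12 in the cocultures. In CPM these were 1.54, 1.65, 1.44 and 0.325 in MKs cultured alone and 1.23, 1.69, 0 and 2.08 in the cocultures, where 3 counts in coculture 3 would be 0.314 CPM. The groups overlapped, with the lowest value of each group set by a single library. The log2 fold change was -0.01 (SE 0.99, 95% interval -2.25 to 2.23, adjusted p = 0.994 by edgeR). A change in G6b-B transcripts within that interval was not detectable from these counts. Without coculture 3, which had the largest total, the log2 fold change was 0.36 (SE 0.56, 95% interval -0.83 to 1.54, adjusted p = 0.606 by edgeR).

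Within libraries, Treml1 had 8.0, 8.5, 10.3 and 38.0 counts for each count of Mpig6b in MKs cultured alone and 9.38, 6.77 and 6.67 in cocultures 1, 2 and 4, while coculture 3 gave no ratio. The value of 38.0 rests on 2 counts of Mpig6b, with an exact interval of 10.2 to 319.5. These receptors of the MK lineage kept overlapping ratios (mean log2 difference -0.77, two-sided exact permutation test, p = 0.171, where 4 against 3 libraries allow no p below 0.0571). Pecam1 had 36.6, 48.9, 47.5 and 179 counts for each count of Mpig6b in MKs cultured alone and 11.2, 11.1 and 7.67 in the same cocultures. These did not overlap (mean log2 difference -2.67, exact permutation p = 0.0571, the smallest possible, and 0.0761 adjusted over 4 ratios). In cocultures 1, 2 and 4, Pecam1 was thus lower relative to G6b-B as well as relative to the library, although the test could not reach 0.05. Coculture 3 had 1534 counts of Pecam1 and 0 of Mpig6b, so the absence of overlap was found only without it.

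Of the MK and platelet markers beside which TLT-1 and G6b-B are read, 1 of 15 was called, with a median log2 fold change of -0.39. Nfe2, a transcription factor of late MKs, was the called gene and was named after its values were seen. Its mean was 371.5 CPM in MKs cultured alone and 56.2 CPM in cocultures, a log2 fold change of -2.73. Without coculture 3, 4 of the 15 were called, all lower, with a median of -0.53.

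Lair1 (ENSMUSG00000055541.17, chr7:4003402-4063204, minus strand) encodes LAIR-1, a collagen receptor of leukocytes that recruits SHP-1. Its levels were 78.8, 61.6, 46.9 and 51.2 CPM in MKs cultured alone and 55.5, 63.6, 0.628 and 54.8 CPM in the cocultures. Cocultures 1, 2 and 4 lay inside the range of MKs cultured alone, and coculture 3, with 6 counts, lay far below it. The log2 fold change was -0.45 (SE 0.90, adjusted p = 0.759 by edgeR). Without coculture 3 it was -0.06 (SE 0.20, 95% interval -0.48 to 0.36, adjusted p = 0.825 by edgeR), an interval inside the 2-fold cutoff on both sides.

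The leukocyte markers beside which Lair1 is read moved in opposite directions. Of the 11 macrophage markers, 10 were in the table, 9 were tested and 7 were called higher, with a summed level of 255.1 to 324.0 CPM in MKs cultured alone and 1082 to 1331 CPM in the cocultures. Csf1r, the receptor for colony-stimulating factor 1 and a marker of macrophages, was at 69.5 to 129.3 CPM in MKs cultured alone, 261.0 to 328.9 CPM in cocultures 1, 2 and 4 and 151.2 CPM in coculture 3. Of the 8 B cell markers, 4 were called lower, with a summed level of 854.1 to 901.8 CPM in MKs cultured alone, 195.0 to 225.4 CPM in cocultures 1, 2 and 4 and 61.1 CPM in coculture 3. Of the 10 T and NK cell markers, 8 were in the table, 6 were tested and 3 were called lower, and 6 of the 8 were at 0 in coculture 3. Their summed level was 130.2 to 220.7 CPM in MKs cultured alone, 24.1 to 30.1 CPM in cocultures 1, 2 and 4 and 1.05 CPM in coculture 3. Ms4a1, which encodes CD20 of B cells, was lower at a log2 fold change of -2.82, and Nkg7, a granule protein of cytotoxic lymphocytes, at -3.199. Without coculture 3, 8 macrophage markers were called higher, and 5 B cell markers and 6 T and NK cell markers lower. The part of these cells in the level of Lair1 was not tested.

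**Figure D2:**
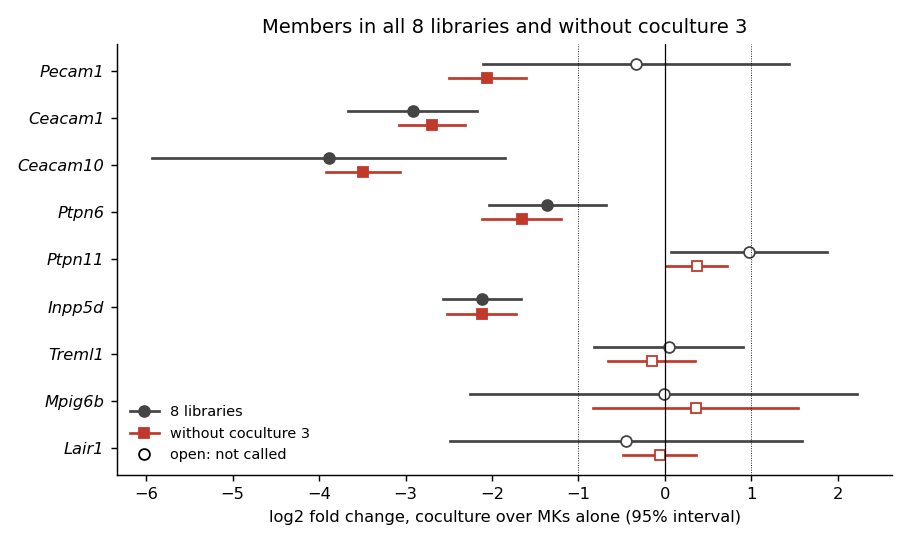
Log2 fold changes of the 9 genes, cocultures over MKs cultured alone, with 95% intervals, from edgeR over all 8 libraries (grey circles) and without coculture 3 (red squares). Filled symbols were called and dotted lines mark a 2-fold change. Ceacam1, Ceacam10, Ptpn6 and Inpp5d were called both ways, and Pecam1 moved from -0.33 to -2.05 and became called once coculture 3 was left out.

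Of the phosphatases, Ptpn6 and Inpp5d were called lower and Ptpn11 was not called. Ptpn6 (ENSMUSG00000004266.15, chr6:124720707-124738714, minus strand) encodes SHP-1, a phosphatase mainly of blood cells. Its levels were 194.2, 333.1, 291.0 and 305.0 CPM in MKs cultured alone and 69.7, 92.0, 166.2 and 110.0 CPM in the cocultures. All cocultures lay below all libraries of MKs cultured alone, with coculture 3 nearest to them. The log2 fold change was -1.36 (SE 0.30, adjusted p = 0.0118 by edgeR), 2.57-fold lower, and -1.66 (SE 0.22, adjusted p = 7.32e-06 by edgeR) without coculture 3. The call was lost without replicate 2 of MKs cultured alone (log2 fold change -1.24, adjusted p = 0.0509), with a correction for gene length (-0.92, adjusted p = 0.207), and when a change beyond 2-fold was itself tested with glmTreat. Of its 31-base stretches, 5.78% are shared with the overlapping antisense gene Gm20531, which is not a gene of the table.

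Ptpn11 (ENSMUSG00000043733.14, chr5:121130533-121191397, minus strand) encodes SHP-2, which is made in nearly all cell types and promotes growth factor signaling besides its role at ITIMs. Its levels were 50.8, 50.6, 58.3 and 53.2 CPM in MKs cultured alone and 68.5, 76.2, 210.4 and 64.4 CPM in the cocultures. Every coculture lay above every library of MKs cultured alone, and coculture 3 lay far above the rest. The log2 fold change was 0.98 (SE 0.40, 95% interval 0.08 to 1.88, adjusted p = 0.111 by edgeR) and was not called. Without coculture 3 it was 0.37 (SE 0.17, adjusted p = 0.0725 by edgeR), and the groups still did not overlap. When libraries were scaled to the MK and platelet markers it was called higher, at 1.19 (adjusted p = 0.0341 by edgeR), and it then lay 0.87 above the median gene.

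Inpp5d (ENSMUSG00000026288.14, chr1:87620312-87720507, plus strand) encodes SHIP1, a blood cell phosphatase that removes the lipid product of PI3-kinase. Its levels were 144.3, 168.3, 183.5 and 156.8 CPM in MKs cultured alone and 33.2, 46.2, 36.3 and 35.04 CPM in the cocultures. The groups were widely apart, and coculture 3 lay within the other cocultures. Inpp5d had a log2 fold change of -2.11 (SE 0.20, adjusted p = 0.000128 by edgeR), a 4.33-fold lower level, and -2.12 (SE 0.19) without coculture 3. With the correction for gene length it was -1.39 (adjusted p = 0.0581 by edgeR) and not called. Among the 9 genes, Inpp5d had the smallest standard error, and its value moved least when coculture 3 was left out.

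The ratio of SHP-1 to SHP-2 counts was lower in every coculture than in the controls, at an adjusted p that misses 0.05. Ptpn6 had 3.83, 6.58, 4.99 and 5.73 counts for each count of Ptpn11 in MKs cultured alone and 1.02, 1.21, 0.790 and 1.71 in the cocultures. No coculture reached the lowest ratio of MKs cultured alone, and coculture 3 was at the low end of the cocultures without standing apart. The mean log2 difference was -2.19 (p = 0.0286 by a two-sided exact permutation test, again the smallest possible, and 0.0572 adjusted over 4 ratios), and it ran from -2.39 to -2.02 when each library was left out in turn, with -2.02 as the value without coculture 3. These are ratios of counts per gene, so they compare the conditions and do not give the relative number of transcripts of the phosphatases.

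**Figure D3:**
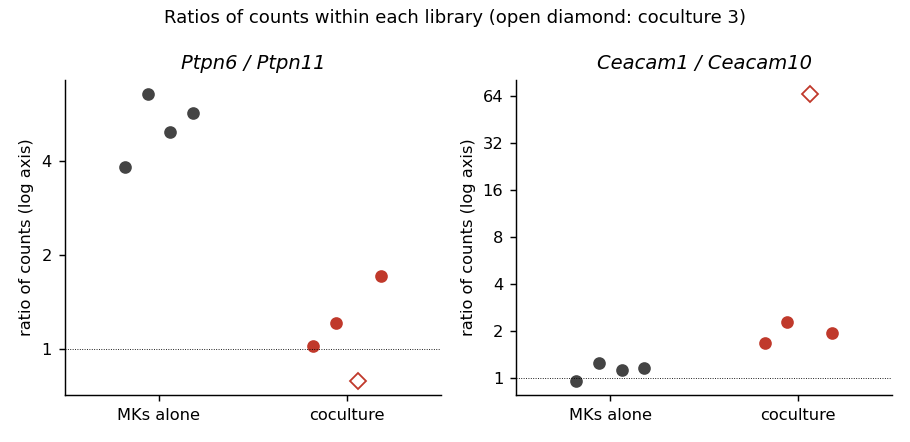
Ratio of counts within each library on log axes, for Ptpn6 over Ptpn11 (left) and Ceacam1 over Ceacam10 (right), with 4 libraries per group and coculture 3 as an open diamond. The Ptpn6 to Ptpn11 ratio was 3.83 to 6.58 in MKs cultured alone and 0.790 to 1.71 in cocultures. The Ceacam1 to Ceacam10 ratio was higher in every coculture, at 66.0 in coculture 3 and 1.68 to 2.30 in the others.

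Among all genes tested, the 3 whose log2(CPM + 1) followed Ptpn6 most closely over the 8 libraries were Cd74 (r = 0.997), Padi2 (r = 0.987) and Vav1 (r = 0.986). Inpp5d was nearest to Chdh (r = 0.999), Chil5 (r = 0.997) and Sephs2 (r = 0.996), and Ptpn11 to Hadh (r = 0.996), Svbp (r = 0.994) and Timm10b (r = 0.993). Pecam1 was nearest to Grb2, Rab37 and Syf2 (r = 0.988 for each). Grb2 is an adaptor of the same signaling network. Lair1 was nearest to Gosr1 (r = 0.999), Kdelc1 (r = 0.998) and Asap1 (r = 0.998). Treml1 was nearest to Gripap1 (r = 0.982), Nelfb (r = 0.97) and Hk3 (r = 0.969). For Mpig6b the nearest were Simc1, Pigg and Shmt1, with r from 0.945 to 0.951. All are descriptions over libraries that share the same split and the same departing library.

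Levels of different genes were compared per length, as TPM computed here from the counts and mean transcript lengths. In MKs cultured alone the order was Ceacam10 (358 TPM), Ptpn6 (199 TPM), Ceacam1 (181 TPM), Inpp5d (56.1 TPM), Lair1 (31.7 TPM), Pecam1 (30.99 TPM), Treml1 (17.5 TPM), Ptpn11 (14.3 TPM) and Mpig6b (1.24 TPM). Among neighbors in this order, the ranges of Ptpn6 and Ceacam1, of Lair1 and Pecam1, and of Treml1 and Ptpn11 overlapped. In cocultures 1, 2 and 4 the order was Ptpn6 (77.6 TPM), Ceacam10 (39.3 TPM), Lair1 (37.8 TPM), Ceacam1 (34.7 TPM), Ptpn11 (22.7 TPM), Treml1 (19.5 TPM), Inpp5d (15.96 TPM), Pecam1 (9.23 TPM) and Mpig6b (2.04 TPM), and the ranges from Ceacam10 through Ceacam1 and from Ptpn11 through Inpp5d overlapped between neighbors. SHP-2, next to last in MKs cultured alone, thus stood above SHIP1 in these cocultures, with ranges of 21.3 to 25.3 TPM for Ptpn11 and 13.4 to 19.7 TPM for Inpp5d. In coculture 3 the levels were 80.0 TPM for Ptpn6, 51.5 TPM for Pecam1, 38.6 TPM for Ptpn11, 16.6 TPM for Treml1, 8.54 TPM for Inpp5d, 7.42 TPM for Ceacam1 and at most 0.250 TPM for Ceacam10, Lair1 and Mpig6b. These levels are those of a mixed population, so the order need not be that of any of its cells.

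The genes around the members were described from hand-written lists. Of 28 other ITIM receptors, mostly of leukocytes, 21 were in the table and 20 were tested, of which 10 were called lower and 1 higher, with a median log2 fold change of -1.88. The largest falls with a mean of at least 10 CPM were in Siglecf (-5.38, SE 0.89), Cd101 (-4.35, SE 0.51), Cd33 (-3.13, SE 0.29) and Klra17 (-2.84, SE 0.88). Siglec-F, which is also in the eosinophil list, CD33 and CD101 are inhibitory receptors of myeloid cells, and Klra17 belongs to the Ly49 family. Cd33 was at 456.1 to 641.6 CPM in MKs cultured alone, 46.6 to 87.1 CPM in cocultures 1, 2 and 4 and 40.9 CPM in coculture 3. The gene called higher, named after its values were seen, was Lilrb4a, an inhibitory receptor of myeloid cells, at 239.5 to 348.7 CPM in MKs cultured alone and 665.5 to 939.0 CPM in the cocultures (log2 fold change 1.38, SE 0.20, adjusted p = 0.00134 by edgeR). Sirpa and Pirb, further ITIM receptors of myeloid cells, were not called, at log2 fold changes of 0.38 and -0.26. Without coculture 3, 13 were called lower and 1 higher.

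**Figure D4:**
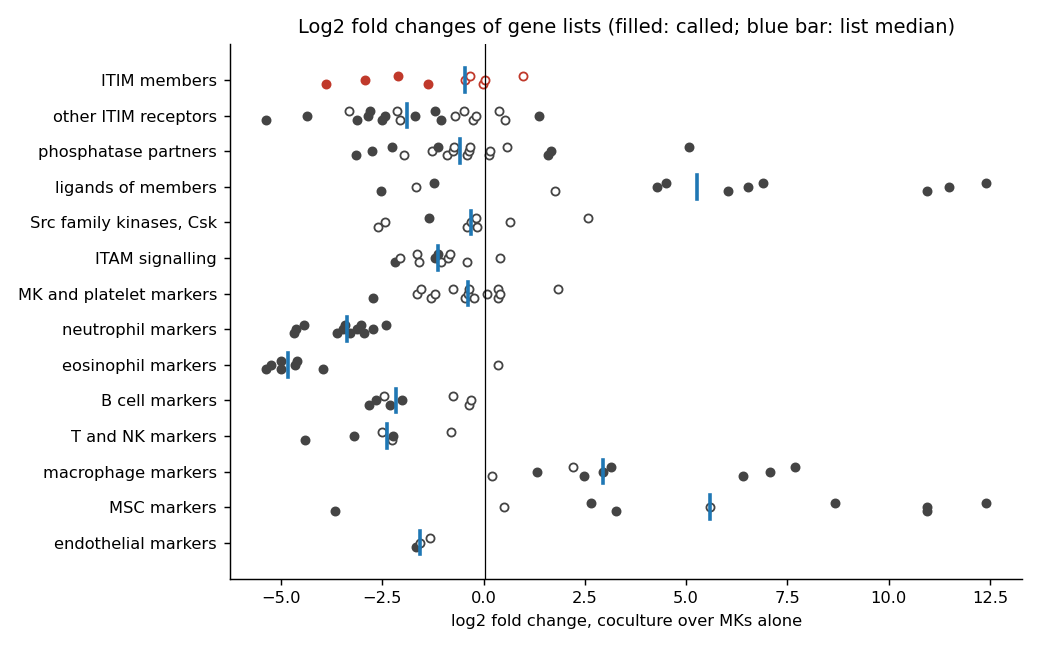
Log2 fold changes of each tested gene in the hand-written lists, cocultures over MKs cultured alone, from edgeR over 8 libraries, with the 9 members in red. Filled points were called and blue bars are list medians. Medians were -1.88 for other ITIM receptors, -0.57 for phosphatase partners, 5.26 for ligands and -3.36 for neutrophil markers, and fold changes above 10 are of genes at or near 0 in MKs cultured alone and are not bounds.

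Partners and relatives of the phosphatases moved both ways. All 18 were tested, 4 were called lower and 3 higher, and the median log2 fold change was -0.57. Inppl1, which encodes SHIP2, the relative of SHIP1 made in most tissues, was at 0.813 to 2.44 CPM in MKs cultured alone, 35.1 to 54.3 CPM in cocultures 1, 2 and 4 and 84.0 CPM in coculture 3. This rise (log2 fold change 5.07, SE 0.52, adjusted p = 0.000204 by edgeR, and 4.70 without coculture 3) was opposite in direction to the fall of Inpp5d in the same libraries. Ptprc, which encodes CD45 and is specific to blood cells, had a log2 fold change of -2.26 (SE 0.71, adjusted p = 0.0492 by edgeR), with 163.7 to 299.4 CPM in cocultures 1, 2 and 4 and only 14.9 CPM in coculture 3, against 645.9 to 1202 CPM in MKs cultured alone. Pag1, an adaptor that anchors the inhibitory kinase CSK, had a log2 fold change of -3.15, and Gab3, a docking protein for SHP-2, of -2.74. Without coculture 3, 7 were called lower and 3 higher.

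Most of the tested ligands of the receptors rose together with the MSC markers. Of 16 listed ligands, which include CD47 as the ligand of SIRPA, 13 were in the table and 12 were tested, with 8 called higher, 2 lower and a median log2 fold change of 5.26. Of the 8 called higher, 6 encode collagen chains, and collagens are the ligands of LAIR-1. Col1a2 was at 4.41 to 8.46 CPM in MKs cultured alone, 684.0 to 937.0 CPM in cocultures 1, 2 and 4 and 363.5 CPM in coculture 3. Col1a1 (519.9 to 795.5 CPM) and Col3a1 (238.3 to 423.5 CPM) were likewise high in cocultures 1, 2 and 4 and at most at 0.662 CPM and 0.221 CPM in MKs cultured alone. Hspg2, which encodes perlecan, a heparan sulfate proteoglycan that binds G6b-B, had no count in MKs cultured alone and averaged 45.7 CPM in the cocultures, at least 69.0-fold higher against a floor of 3 counts per library. The ligands of PECAM-1 went the other way, as Cd177, a neutrophil surface protein, had a log2 fold change of -2.52 (SE 0.28), while Cd38, a surface enzyme of leukocytes, was not called at -1.67. Without coculture 3, Cd38 was called lower as well (-1.28, adjusted p = 0.00219 by edgeR), and all 13 ligands then tested were called, 10 higher and 3 lower. Cd47 was the other ligand called lower over all 8 libraries (log2 fold change -1.22, adjusted p = 0.00215 by edgeR). The summed level of the ligands was 1739 to 2058 CPM in MKs cultured alone and 2859 to 3484 CPM in cocultures 1, 2 and 4. In coculture 3 it was lower than in MKs cultured alone, at 1300 CPM. Cd177 and Cd47 were named after their values were seen.

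The MSC markers, in which Col1a1 and Col3a1 are also listed, gave values that bear on these ligands. Of the 13 listed, 12 were in the table, 9 were tested, 6 were called higher and 1 lower, with a summed level of 128.9 to 160.2 CPM in MKs cultured alone, 2321 to 3254 CPM in cocultures 1, 2 and 4 and 901.5 CPM in coculture 3. Sparc, an extracellular matrix protein and the highest of the list, was at 0.103 to 1.10 CPM in MKs cultured alone and 547.7 to 1419 CPM in the cocultures. Pdgfra, which encodes the sorting marker CD140a, was at 0 to 0.515 CPM in MKs cultured alone and 24.8 to 34.8 CPM in cocultures 1, 2 and 4. In coculture 3 Pdgfra was at 0.209 CPM, below the floor of 3 counts and within the range of MKs cultured alone. It was not tested over all 8 libraries and was called higher without coculture 3. Without coculture 3, 11 markers were tested, with 9 called higher and 1 lower. The part of MSCs carried into the coculture libraries in the values of Inppl1, Ptpn11 or the ligands was not tested.

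Lyn transcripts were lower in the cocultures. By flow cytometry, the paper instead reports more total LYN protein and more phosphorylated LYN in platelets from cocultures. Transcripts and protein are unlike measures, and LYN protein was not measured here. Of 9 genes for Src family kinases and Csk, the kinases that phosphorylate ITIMs and their inhibitor, all were tested and Lyn was the gene called, with 267.1 to 319.6 CPM in MKs cultured alone, 88.3 to 102.5 CPM in cocultures 1, 2 and 4 and 175.9 CPM in coculture 3 (log2 fold change -1.34, SE 0.25, adjusted p = 0.00492 by edgeR). As for Ptpn6, coculture 3 was the coculture nearest to MKs cultured alone. Without coculture 3 Lyn was at -1.63. The list's median was -0.31, and without coculture 3, 4 were called lower and 1 higher. Of 11 ITAM signaling genes, the pathway that ITIMs oppose, 3 were called lower and none higher by edgeR or DESeq2, and none was higher at an unadjusted p under 0.05, with a median of -1.12. They were Btk (-2.18), Syk (-1.20) and Vav1 (-1.12), which encode tyrosine kinases and an exchange factor downstream of GPVI and of the antigen and Fc receptors. Without coculture 3, 9 of the 11 were called lower. Of the ITAM receptors of MKs, Clec1b, which encodes CLEC-2, was not called with coculture 3 (log2 fold change 0.40) or without it (0.25). Gp6, which encodes GPVI, was not called over all 8 libraries (-1.64, adjusted p = 0.302 by edgeR) and was called lower without coculture 3 (-1.20, adjusted p = 0.0401 by edgeR).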

How the data were processed

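The authors deposited raw counts per gene, as whole numbers without normalization. Per the methods, reads of paired-end SMART-Seq HT libraries were filtered with fastp and quantified with kallisto on the mm10 transcriptome, and the submitters' notes also name DESeq2. How counts were summed over transcripts, and whether strand was used, is not given in the sources used here, so values of overlapping antisense genes and of near-identical copies could be split or shared between genes. The study's methods include a batch term, but no batch is named in the labels.

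The groups were compared over all 8 libraries with the robust quasi-likelihood test of edgeR 4.0.16 (R 4.3.3), with TMM factors, the filterByExpr filter and no covariate, and the scripts were tested on simulated data. Calls followed the study's cutoffs, a 2-fold change and an adjusted p of 0.05, with 1 CPM in place of 1 TPM as the lowest group mean. Standard errors came from the coefficient and the quasi-likelihood F statistic. Alternatives were DESeq2 1.42.0, other scalings, other filters on low counts, a replicate block, a gene length correction, glmTreat, and each library left out. Count ratios were tested with exact permutation tests (scipy 1.17.1). Lengths, motifs and coordinates came from GENCODE vM21 on GRCm38. Exact intervals of count ratios and floors cover counting error only, since reads carry no molecular identifiers. Intervals of fold changes were built from the standard errors, so they also include the spread between libraries.

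The members and all gene lists were chosen with earlier results of these data known. All 9 members were named. From each list of signaling genes or ligands, up to 4 called genes with the largest absolute log2 fold change and a mean of at least 10 CPM were named, plus Lyn. The gene with the highest mean of each marker list and the 3 genes nearest to each member were also named. Other genes were chosen after their values were seen, and Sirpa, Pirb, Pdgfra, Cdh5, Gp6, Clec1b and Cd38 are among these.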

Additional observations from a re-analysis of the deposited data

Results flagged for a closer look

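In each group, every member and every count ratio with values in all 4 libraries was searched for a single library whose value lay apart. The ratios to Mpig6b in the cocultures were not searched, as coculture 3 gave none. A library apart was found in 7 of 24 searches, against about 1.2 by chance (1 in 20), and coculture 3 accounted for 5 of the 7. The searches share libraries, and the ratios reuse counts of the same members. The 7 are therefore not separate findings, and their number against 1.2 is not a test. In that library log2(CPM + 1) was 7.34 for Pecam1 and 7.72 for Ptpn11, above the other cocultures, and 0.27 for Ceacam10 and 0.70 for Lair1, below them. Its log2 ratio of Ceacam1 to Ceacam10 counts was 6.04. In replicate 4 of MKs cultured alone, log2(CPM + 1) of Mpig6b was 0.41, from 2 counts, and the log2 ratio of Treml1 to Mpig6b counts was 5.25. Ceacam1, Ptpn6, Inpp5d and Treml1 had no library apart in either group.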

How the results depend on the processing

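Of 168 alternative values of single members, 144 kept their direction and their side of the threshold, and the members called lower numbered 3 to 5 whichever library was dropped. Among the 144 is Pecam1 in DESeq2 without the block, at -0.315, which had no adjusted p there and was counted as not called. Whether the groups' replicate numbers pair the samples is not given in the labels. Same-numbered libraries correlated at 0.369, 0.0198, 0.15 and 0.028 in their deviations from group means, and not every library correlated best with its own number. The departure of coculture 3 enters these deviations, so the correlations cannot exclude pairing. With the replicate block the median of the members was -1.297 (-1.33 in DESeq2 with the block) and Ceacam10 lost its call in edgeR (-4.37, adjusted p = 0.0642) and kept it in DESeq2 (-4.46, adjusted p = 9.28e-06). The length correction left 2 members called, both lower, which were Ceacam1 and Ceacam10 without the block and Ceacam1 and Inpp5d with it, with a median of -0.99 in the latter. It gave 1.12 for Pecam1, -0.92 for Ptpn6 (adjusted p = 0.207) and -1.39 for Inpp5d (adjusted p = 0.0581), and together with the block -1.604 for Inpp5d (adjusted p = 0.0499), -4.63 for Ceacam10 (adjusted p = 0.0604) and -1.21 for Ptpn6 (adjusted p = 0.131). It moved the median of all genes from 0.03 to 0.32, and scaling to the MK and platelet markers moved it to 0.33. Under that scaling Ptpn11 was called higher (1.19, adjusted p = 0.0341, or 0.87 above the median of all genes), which made 1 member called higher. Requiring 10 counts or more in all libraries removed Ceacam10, Lair1 and Mpig6b and gave a median of -1.07.

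Values near 0 changed sign. Treml1 was -0.052 with upper quartile factors, -0.093 with the stricter filter, -0.10 with the length correction and -0.13 with the block added. Mpig6b was 0.11 with library size only and 0.33 when scaled to the markers. With each library left out, Pecam1 ran from -2.05 to 0.025, Treml1 from -0.15 to 0.17, Mpig6b from -0.34 to 0.36, Ptpn11 from 0.37 to 1.21, Lair1 from -0.66 to -0.06, and the median of the members from -1.66 to -0.41. Over the same alternatives Ceacam1 ran from -3.06 to -2.69, Ceacam10 from -4.12 to -3.49, Ptpn6 from -1.66 to -1.19 and Inpp5d from -2.19 to -2.04. Adding 1 count to both genes, which brings coculture 3 in, turned the Treml1 to Mpig6b log2 difference to 0.53 (exact permutation test, p = 0.943), and it ran from -0.99 to -0.24 over left-out libraries. The Ceacam1 to Ceacam10 difference ran from 0.81 to 2.57 and that of Pecam1 to Mpig6b from -2.92 to -2.16. The ranges of the ratios to Mpig6b lack coculture 3 throughout, so they do not show how that library would move them. Against a 2-fold change itself (glmTreat), 3 members were called lower, and no Src family kinase or ITAM signaling gene was called, while over all alternatives 0 to 9 ITAM signaling genes, 0 to 4 Src family kinases, 1 to 7 phosphatase partners and 6 to 13 other ITIM receptors were called lower, and 3 to 10 ligands higher. The cause of these changes was not tested. Low counts limit Mpig6b most, with at most 16 in a library.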

Other observations

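The SHIP2 gene was not alone among phosphatase partners in rising. Dok1 and Dok2, adaptors that dampen tyrosine kinase signaling in blood cells and were named after their values were seen, were at 12.1 to 22.3 CPM and 14.3 to 22.0 CPM in MKs cultured alone. In cocultures 1, 2 and 4 they were at 31.9 to 51.6 CPM and 37.4 to 68.2 CPM, and in coculture 3 at 95.3 CPM and 72.5 CPM. The groups did not overlap, and both were called higher (log2 fold change 1.67, SE 0.40, adjusted p = 0.0179 for Dok1 and 1.59, SE 0.31, adjusted p = 0.00686 for Dok2, by edgeR), also without coculture 3, at 1.25 and 1.42. Of the close relatives of the phosphatases described above, Ptprj, which encodes CD148, a receptor phosphatase that activates Src family kinases in platelets, was called lower at a log2 fold change of -1.13 (adjusted p = 0.0393 by edgeR). Without coculture 3, which had the lowest level, the value was -0.92 (adjusted p = 0.000464 by edgeR), short of the 2-fold change that a call requires.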
